A study of Mus musculus with 8 samples.

Results

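Small nucleolar RNAs (snoRNAs) were measured in adult mouse liver through 73 genes of the 22180 that the arrays named on their own. They were taken by their gene symbols. A row of the deposited values counted when its annotation named exactly 1 gene starting with Snord or Snora, which gave 75 rows, and Snora19 and Snora33, with 2 rows each, kept the row of the higher mean. There were 47 Snord genes, which make box C/D snoRNAs, and 26 Snora genes, which make box H/ACA snoRNAs. The livers came from 8 male offspring at 24 weeks of age by the labels and at 6 months by the methods. The dams were C57BL/6J mice. The 4 HFD PN offspring were nursed by dams on a 60% high-fat diet (D12492), and the 4 Ctrl PN offspring by dams on a standard chow, which the labels and the methods name differently. PN stands for postnatal, and all offspring ate a normal diet after weaning. Each liver gave 1 array, and the comparison asks whether the diet of the dam during lactation is followed by a difference in the adult liver of male offspring. The sources used here do not say which livers shared a litter, so that the p-values measure the spread between these livers only.

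Small nucleolar RNAs guide chemical changes of other RNAs, above all of ribosomal RNA in the nucleolus. A box C/D snoRNA pairs with its target and the methyltransferase Fbl methylates the ribose there, while a box H/ACA snoRNA places the pseudouridine synthase Dkc1. A few members, such as U8 (Snord118), U13 (Snord13), U22 (Snord22) and U17 (Snora73), are instead known for the cutting or acetylation of the ribosomal precursor. In mammals most snoRNAs are not transcribed on their own but are trimmed out of introns of host genes, many of which make ribosomal proteins or noncoding RNAs with no known product other than the snoRNA. In cultured hamster cells, snoRNAs of the Rpl13a introns are known from the response to excess fatty acid, and U17 from cholesterol trafficking. The exposure here was another, as the high-fat diet was that of the dam during lactation and the offspring ate a normal diet after weaning.

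Values are log2 signals, with a median of 1.54 over all rows of the arrays, and a difference is the HFD PN mean minus the Ctrl PN mean on this scale. A signal depends on the probes as well as on the RNA, and the signals of different genes were not ranked. The mean signal of a Snord gene ran from 0.93 to 9.10, with 40 genes above the median of all rows and 7 not above it. That of a Snora gene ran from 1.24 to 9.28, with 22 genes above that median and 4 not above it. Probes placed in a snoRNA also match the unspliced intron of its host, so that the mature snoRNA and the precursor cannot be told apart. The hepatocyte markers Alb, at 12.13 to 12.35, and Ttr, at 11.86 to 12.01, were high in every liver.
HFD PN replicate 1 and Ctrl PN replicate 3 stood apart before any snoRNA was considered. Across genes, which are not independent replicates, Pearson's r lay between 0.986 and 0.991 for pairs of the remaining 6 arrays. It was 0.945 to 0.968 for pairs with HFD PN replicate 1, and 0.969 to 0.979 for Ctrl PN replicate 3 with those 6. Of the 6 listed hepatocyte markers, 5 lay below the mean of the other livers of the group on each of these arrays, with medians of -0.27 in HFD PN replicate 1 and -0.29 in Ctrl PN replicate 3. Cyp2e1, an enzyme of drug and ethanol oxidation, ran from 11.42 to 11.47 among HFD PN replicates 2 to 4 against 10.42 for replicate 1. Tat, which degrades tyrosine, reached 9.24 on the array of Ctrl PN replicate 3, with the remaining control livers between 9.92 and 11.01. The part of this in the snoRNA values was not tested. Results that rest on these arrays are given with and without them.

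With all 8 livers, 1 snoRNA gene of 73 was lower in HFD PN and none was higher at an unadjusted p under 0.05 (limma, 3.49% of all genes). That gene was Snord73b, which guides methylation of large-subunit ribosomal RNA from an intron of the ribosomal protein gene Rps3a1. At an unadjusted p under 0.01, an exploratory threshold, the counts were 0 of 47 Snord and 0 of 26 Snora genes, where 0.555% of all genes were called. No gene on the arrays reached an adjusted p under 0.05 (0% of genes), and the adjusted p of every snoRNA gene was 0.99988 or more.
Snord73b was at 7.12, 6.97, 7.15 and 6.94 in HFD PN replicates 1 to 4. In Ctrl PN replicates 1 to 4 it was at 7.20, 7.34, 7.55 and 7.71. The groups did not overlap, though the gap between the highest HFD PN liver and the lowest Ctrl PN liver was narrow. The group means were 7.05 ± 0.105 and 7.45 ± 0.23 (SD, n = 4 each), a log2 difference of -0.40 with a standard error of 0.13, or 0.757 times the Ctrl PN signal. The limma p was 0.0123, and the exact two-sided permutation p was 0.0286, the smallest that 4 livers against 4 can give. For the other genes the same exact permutation p is given as the exact p. With each liver left out in turn the difference stayed between -0.49 and -0.31 and the unadjusted p between 0.00479 and 0.0360. Snord73b was the only snoRNA gene whose groups did not overlap, beside 2.82% of all genes. The host Rps3a1, which codes for a protein of the small ribosomal subunit, had a difference of -0.04 (standard error 0.24, exact p = 0.943), and Snord73a, from the same host, had one of 0.11 (standard error 0.29, exact p = 0.771).

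**Figure D1:**
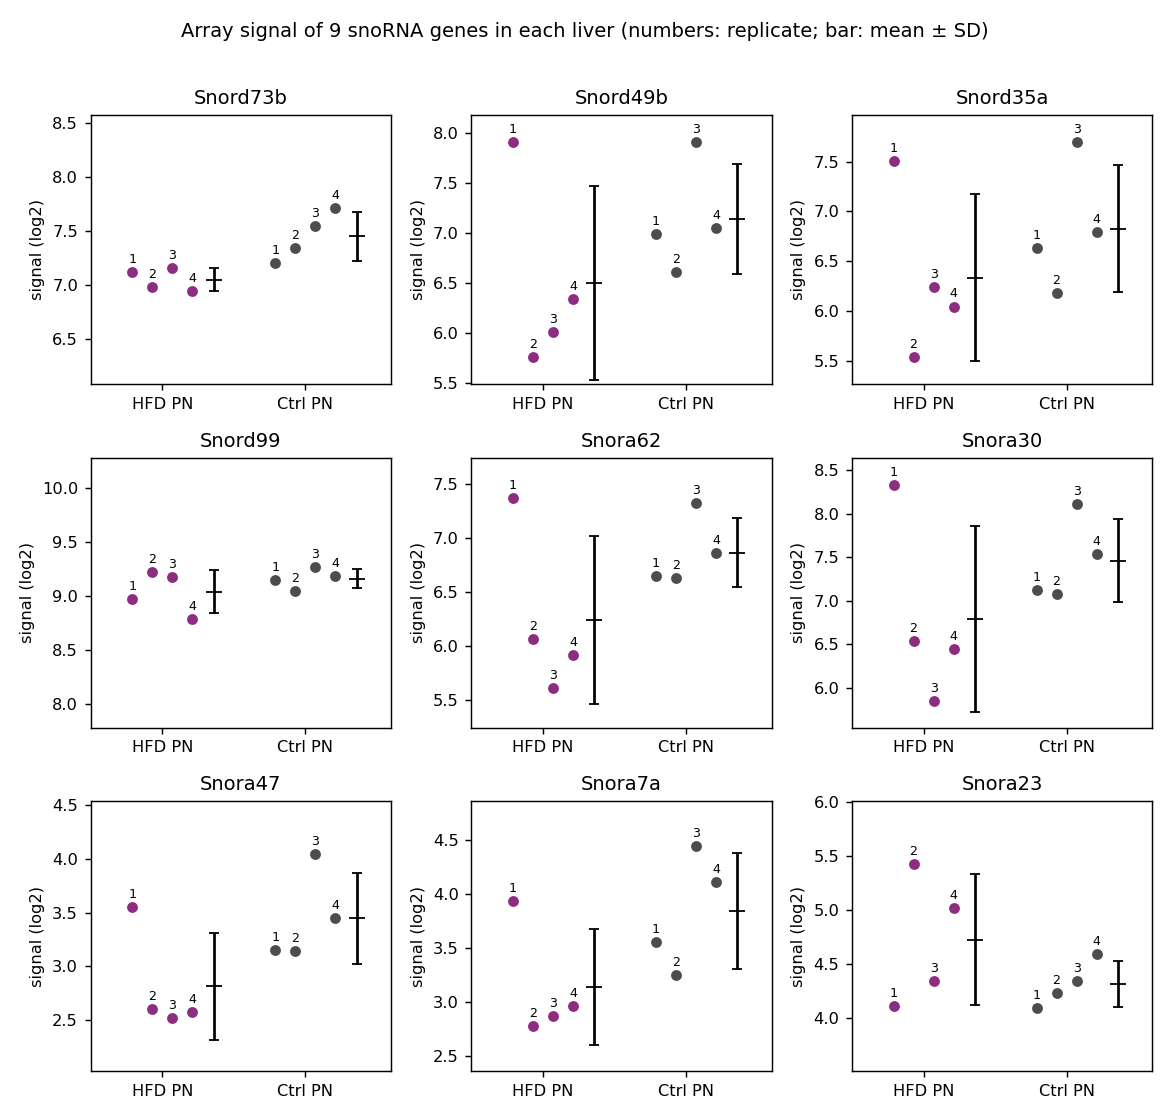
Array signal (log2, vertical axes) of 9 snoRNA genes in each liver, with HFD PN livers in purple, Ctrl PN livers in grey, replicate numbers above the points and the mean ± SD of each group of 4 as a bar. Snord73b is the gene whose groups do not overlap, Snord99 stays within 8.79 to 9.27, and for Snora62, Snora30, Snora47, Snora7a and Snord49b HFD PN replicate 1 lies above the other HFD PN livers.

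As classes, the Snord genes had a median log2 difference of -0.16, with 15 genes above 0 and 32 below. The Snora genes had one of -0.18, with 7 above 0 and 19 below. Over all genes the median was -0.02 and 55.9% of genes lay below 0. The range of the differences was -0.64 to 0.40 for Snord genes and -0.70 to 0.72 for Snora genes, and the median standard errors were 0.24 and 0.29. Both medians moved with 1 control liver. Without Ctrl PN replicate 3 they were -0.04 and -0.05, and the median over all genes was -0.03.
The direction was the most even among members with a mean signal above 6, a cut that was not set in advance. All 10 such Snord genes and all 5 such Snora genes lay below 0, with medians of -0.28 and -0.54, while 596 of the 1342 genes of that signal lay below 0 and the median over those genes was 0.02. Only Snord73b of these 15 passed the test. All 15 were measured on the same arrays, so that their directions are not independent. The direction rested in part on Ctrl PN replicate 3. Without it 6 of the 10 Snord and 4 of the 5 Snora genes lay below 0, with medians of -0.03 and -0.38, and Snord13, Snord104, Snord82, Snord22 and Snora73b lay above 0, while 751 of the 1342 genes lay below 0. Without HFD PN replicate 1 all 15 lay below 0, as did 442 of the 1342 genes. Without both arrays that stood apart, a choice made after the data were seen, all 15 lay below 0. The medians were then -0.24 for the Snord and -0.52 for the Snora genes, and 518 of the 1342 genes lay below 0. Members of lower signal were less even with all livers. At a signal of 3 to 6, 12 of 15 Snord and 7 of 12 Snora genes lay below 0, with medians of -0.33 and -0.04. From the median of all rows to 3, 8 of 15 Snord and 4 of 5 Snora genes did, with medians of -0.03 and -0.29.

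The snoRNA genes had wider median ranges over the livers than all genes. Their highest values lay most often on the arrays that stood apart, HFD PN replicate 1 for Snora genes and Ctrl PN replicate 3 for Snord genes. The median range over the 8 livers was 1.18 for Snord and 1.52 for Snora genes, against 0.608 for all genes and 0.798 for all genes above the median of all rows. Neither of these sets was matched to the signals of the snoRNA genes, so that a part that goes with signal cannot be told apart. Ctrl PN replicate 3 held the highest value of 20 of the 47 Snord genes (42.6%) and 6 of the 26 Snora genes (23.1%), against 18.3% of all genes. HFD PN replicate 1 held the highest value of 13 of the 26 Snora genes and 8 of the 47 Snord genes, against 18.0% of all genes. The median Snora signal was 4.24 in HFD PN replicate 1 and ran from 2.84 to 3.29 among the other HFD PN livers. In Ctrl PN replicates 1 to 4 it was 3.19, 3.15, 3.99 and 3.81. The median Snord signal ran from 3.24 to 3.41 in HFD PN and was 3.18, 3.01, 3.63 and 3.48 in Ctrl PN replicates 1 to 4. Ctrl PN replicate 4 thus lay with replicate 3 rather than with replicates 1 and 2 in both classes.
On these arrays the Snora genes with a signal above 3, and such Snord genes less evenly, went against other genes of like signal. In HFD PN replicate 1 the Snora genes lay above the mean of the other HFD PN livers in 20 of 26 cases, with a median of 0.97, and the Snord genes in 26 of 47 cases, with a median of 0.10. All 4452 genes with a mean signal of 3 to 6 had a median of -0.75 there, while the 12 Snora and the 15 Snord genes of that signal had medians of 1.07 and 0.07. In Ctrl PN replicate 3 the Snora genes lay above the other Ctrl PN livers in 22 cases, with a median of 0.63, and the Snord genes in 39 cases, with a median of 0.32, against -0.35 for all genes with a signal of 3 to 6. Above a signal of 6, 10 Snord genes had medians of 1.09 and 1.06 on these 2 arrays and 5 Snora genes had 1.51 and 0.87, against -0.31 and -0.20 for all genes of that signal. From the median of all rows to 3 the contrast was smaller. There 15 Snord genes had medians of -0.08 and 0.15 and 5 Snora genes had 0.07 and 0.35, against -0.16 and -0.02 for all genes.

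**Figure D2:**
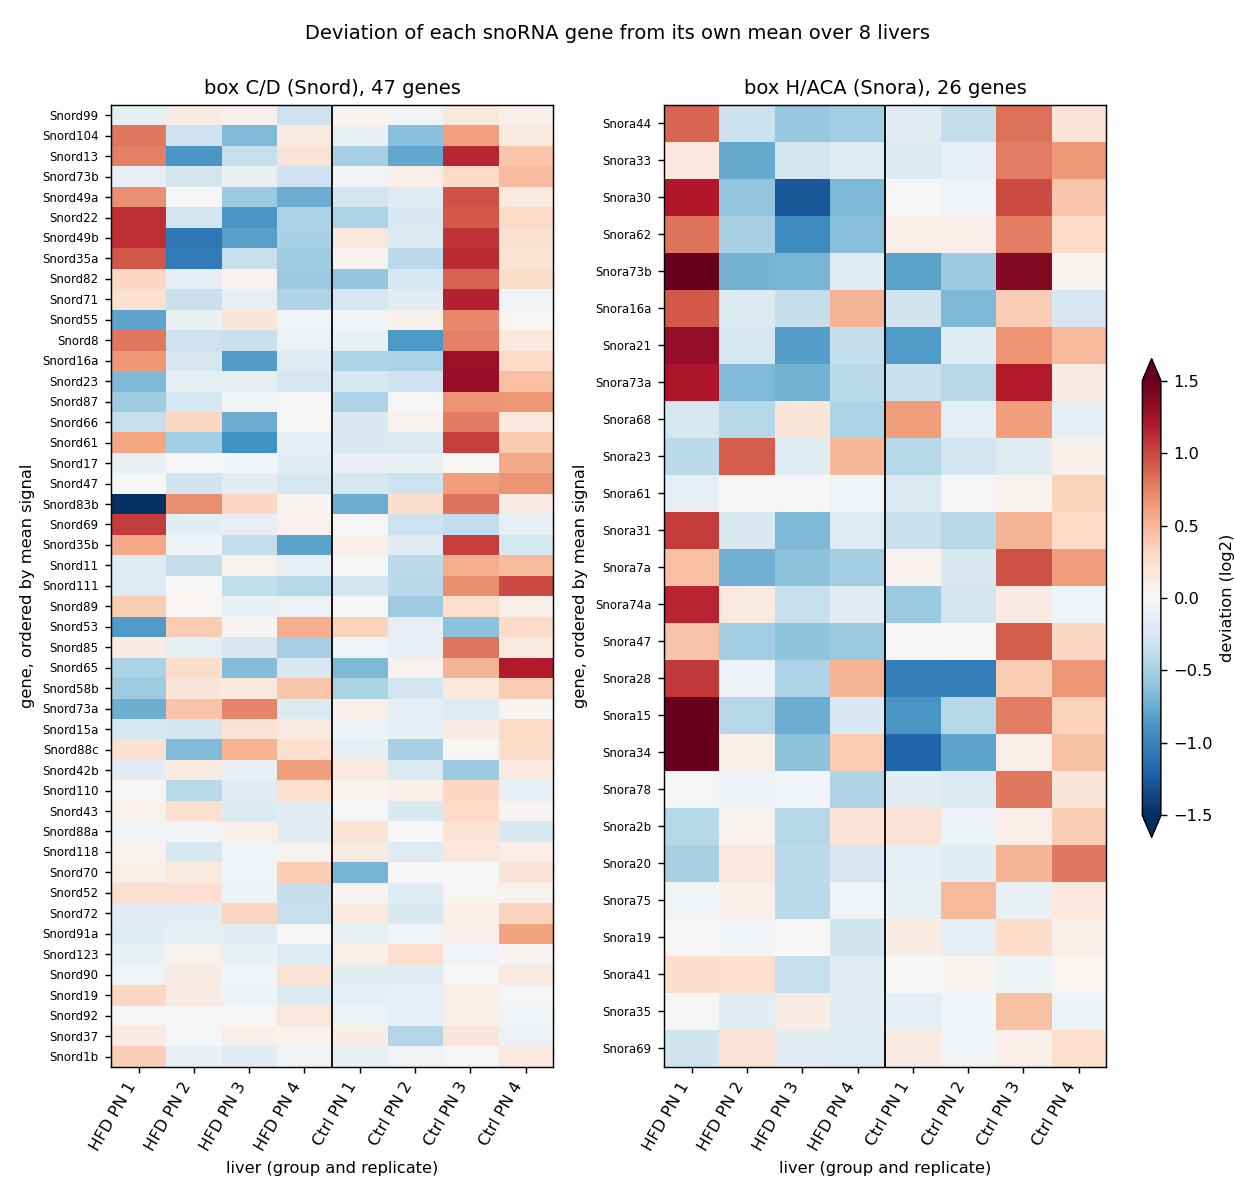
Deviation (log2, colour) of every snoRNA gene from its own mean over 8 livers, with genes as rows ordered by mean signal and livers as columns, HFD PN to the left of the black line. The columns of HFD PN replicate 1 and Ctrl PN replicate 3 are the reddest, the first mainly among Snora genes, and the dim genes in the lower rows show little colour.

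Some groups of members of unlike length also differed in this, and no test of length was made. Lengths were taken from RefSeq and ran from 48 to 221 nucleotides for Snord genes (median 68) and from 56 to 205 for Snora genes (median 118.5), so that class and length overlap and their parts cannot be told apart. Among members above the median of all rows, the 19 Snora genes over 100 nucleotides had a median of 1.27 in HFD PN replicate 1 relative to the other HFD PN livers. The 3 Snora genes of up to 100 nucleotides, Snora20, Snora61 and Snora68, lay between -0.34 and -0.03 there. The 8 Snord genes of 81 to 100 nucleotides had a median of 1.004 and the 28 of up to 80 nucleotides one of 0.03, though the 4 longest Snord genes had a median of 0.05. The RNA was extracted with a silica column kit of a type known to hold back small RNAs less completely than long ones, and how much each liver's extraction let through was not tested. MicroRNA genes, of which 128 lay above the median of all rows, had medians of -0.15 in HFD PN replicate 1 and 0.06 in Ctrl PN replicate 3.

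Among box H/ACA genes, 4 had values in HFD PN replicates 2 to 4 that lay below every control liver, as had 3 box C/D genes, Snord73b, Snord49b and Snord85, and 5.02% of all genes. Snora62 (E2), which guides pseudouridylation of large-subunit ribosomal RNA from an intron of Rpsa, was at 7.37, 6.07, 5.61 and 5.92 in HFD PN replicates 1 to 4. In Ctrl PN replicates 1 to 4 it was at 6.65, 6.63, 7.32 and 6.86. HFD PN replicate 1 held the highest of the 8 values and the other HFD PN livers the lowest 3. The difference over all livers was -0.62 (standard error 0.35, exact p = 0.20).
Snora30, from an intron of the chromatin remodelling gene Srcap, was at 8.33, 6.54, 5.86 and 6.45 in HFD PN and at 7.12, 7.08, 8.11 and 7.54 in Ctrl PN. Its order was that of Snora62, with HFD PN replicate 1 above every other liver. The difference was -0.67 (standard error 0.49, exact p = 0.314).
Snora47, from Zbed3, was at 3.56, 2.61, 2.52 and 2.57 in HFD PN and at 3.15, 3.14, 4.04 and 3.45 in Ctrl PN. Its difference was -0.63 (standard error 0.28) with a limma p of 0.0502 (exact p = 0.114), the smallest limma p among the Snora genes. Snora7a, from the ribosomal protein gene Rpl32, was at 3.94, 2.77, 2.87 and 2.97 in HFD PN and at 3.56, 3.25, 4.45 and 4.11 in Ctrl PN. For both, HFD PN replicate 1 lay among the control livers. Snora7a had a difference of -0.70 (standard error 0.32, exact p = 0.143), the lowest of the class.

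Without HFD PN replicate 1, these 4 of the 26 Snora genes passed an unadjusted p under 0.01, where 2.22% of all genes were called, 0.446% as lower. Their log2 differences were -0.999 (standard error 0.19) for Snora62, -1.18 (0.27) for Snora30, -0.88 (0.21) for Snora47 and -0.97 (0.26) for Snora7a. Their limma p-values were 0.000458, 0.00164, 0.00210 and 0.00428, and the smallest adjusted p among Snora genes was 0.381. As given above, these 4 genes no longer overlap between the groups once HFD PN replicate 1 is left out. Small p-values without that liver therefore follow in part from the values that singled the genes out, and are no separate support. At an unadjusted p under 0.05, 6 of 26 Snora genes were then lower and 1 was higher, and 5 of 47 Snord genes were lower and 0 were higher. Over all genes 9.39% were called without this liver, 2.86% as lower. The lower Snora genes were those 4 with Snora33 and Snora44, and the lower Snord genes were Snord49b, Snord35a, Snord61, Snord73b and Snord85. The class medians without this liver were -0.36 for Snora and -0.19 for Snord genes.
The higher gene was Snora23, from an intron of the nuclear import receptor gene Ipo7. It was at 4.11, 5.42, 4.34 and 5.02 in HFD PN and at 4.09, 4.23, 4.34 and 4.59 in Ctrl PN, so that HFD PN replicates 2 and 4 lay above all other livers. Its difference was 0.41 (standard error 0.27, exact p = 0.257) with all livers and 0.61 (standard error 0.23) without HFD PN replicate 1.
Leaving out both arrays that stood apart, 8.38% of all genes were called at an unadjusted p under 0.05, 2.76% as lower. Among Snora genes 6 were lower and 1 was higher, and among Snord genes 4 were lower. At an unadjusted p under 0.01, 2.24% of all genes were called, 0.546% as lower. The same 4 Snora genes had such a p, with differences from -0.96 to -0.68, and the smallest adjusted p among Snora genes was 0.340. Leaving out Ctrl PN replicate 3 alone, the 4 differences lay between -0.50 and -0.43 with p from 0.134 to 0.416. The choice to leave out both arrays was made after the data were seen, and HFD PN then rests on 3 livers.

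**Figure D3:**
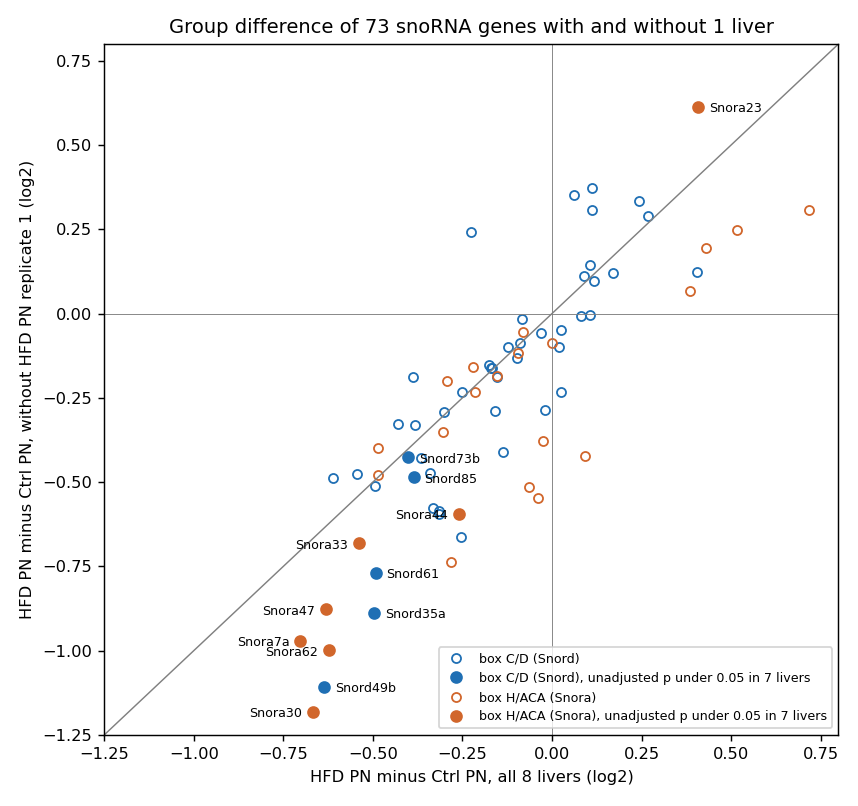
Log2 difference HFD PN minus Ctrl PN of each of the 73 snoRNA genes with all 8 livers (horizontal) and without HFD PN replicate 1 (vertical), with the diagonal marking equal values. Filled points, the 12 genes at an unadjusted limma p under 0.05 in the 7 livers, lie below the diagonal apart from Snora23.

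Among box C/D genes, Snord49b repeated the order of Snora62 and Snora30 except among HFD PN replicates 2 to 4. Snord35a followed that order less fully. Snord49b, a guide for methylation of large-subunit ribosomal RNA, was at 7.92, 5.76, 6.01 and 6.34 in HFD PN and at 6.99, 6.62, 7.91 and 7.05 in Ctrl PN. HFD PN replicates 2 to 4 lay below every control liver, and HFD PN replicate 1 and Ctrl PN replicate 3 lay together at the top. The difference was -0.64 (standard error 0.47, exact p = 0.343), the lowest of the class, and -1.11 (standard error 0.28) without HFD PN replicate 1, the only Snord gene then under 0.01.
Snord35a was the single measured member of the 4 snoRNAs of the Rpl13a introns. It was at 7.51, 5.53, 6.24 and 6.04 in HFD PN and at 6.63, 6.18, 7.70 and 6.79 in Ctrl PN, and the groups overlapped in HFD PN replicates 1 and 3. The difference was -0.50 (standard error 0.44, exact p = 0.40), and -0.89 (standard error 0.32) without HFD PN replicate 1. Rows shared by Snord32a or Snord33 with Rpl13a had differences of -0.34 and -0.30, but such rows cannot separate the snoRNA from the host messenger RNA.
Snord23, from Nop53, differed between the 2 arrays that stood apart. It was at 4.29 to 4.83 in HFD PN, lowest in replicate 1, and at 6.28 in Ctrl PN replicate 3 against 4.66 to 5.42 in the other control livers. Its difference of -0.61 (standard error 0.34, exact p = 0.257) was -0.28 without Ctrl PN replicate 3. Snord83b, from an intron of Rpl3, reached 2.26 in HFD PN replicate 1 and from 3.83 to 4.48 in replicates 2 to 4. Snord65, from the same host as Snord49b, had a difference of -0.54 (standard error 0.37, exact p = 0.286).
The highest differences among Snord genes were those of Snord69, at 0.40 (standard error 0.26, exact p = 0.171), Snord70, at 0.27, Snord42b, at 0.24, and Snord88c, at 0.17. Snord70, Snord42b and Snord88c had low mean signals of 1.63, 1.89 and 1.91 and standard errors of 0.19, 0.21 and 0.26. Snord69 reached 4.78 in HFD PN replicate 1 and stayed at 3.36 to 3.79 elsewhere, and without that liver its difference was 0.12. Among Snora genes the highest were Snora34, at 0.72 (standard error 0.50, exact p = 0.286), Snora28, at 0.52, Snora16a, at 0.43, and Snora23. Snora34 was at 4.42, 2.92, 2.22 and 3.21 in HFD PN and at 1.65, 2.05, 2.94 and 3.27 in Ctrl PN, so that the groups overlapped widely.

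Of the 11 snoRNAs listed for processing of the ribosomal precursor, 5 were measured alone, and 0 passed an unadjusted p of 0.05. U13 (Snord13), needed in human cells for acetylation of small-subunit ribosomal RNA, was at 8.49, 6.85, 7.38 and 7.92 in HFD PN and at 7.23, 6.95, 8.87 and 8.14 in Ctrl PN, a difference of -0.14 (standard error 0.47, exact p = 0.80). U22 (Snord22), known from frog oocytes for release of small-subunit ribosomal RNA and the measured member of the 8 snoRNAs of the Snhg1 introns, was at 7.94, 6.57, 5.97 and 6.37 in HFD PN and at 6.37, 6.605, 7.76 and 7.13 in Ctrl PN, a difference of -0.25 (standard error 0.44, exact p = 0.629). Both were highest in HFD PN replicate 1 within that group and in Ctrl PN replicate 3 within the other.
U17, which acts on the small-subunit precursor, is made by Snora73a and Snora73b, close copies in the introns of Snhg3 whose probes may share RNA. Snora73a was at 6.21 in HFD PN replicate 1 and 6.18 in Ctrl PN replicate 3, and between 4.28 and 5.12 in the other 6 livers. Snora73b was at 7.84 and 7.70 on the same arrays and between 5.53 and 6.37 in the others. Their differences were -0.28 (standard error 0.49, exact p = 0.543) and -0.04 (standard error 0.59, exact p = 0.886), and no snoRNA gene had a larger standard error than Snora73b. These were also the 2 measured of 3 snoRNAs listed for cholesterol trafficking. Without both arrays that stood apart, a choice made after the data were seen, Snora73a had a difference of -0.39 (standard error 0.16). Snora73b had one of -0.10 (standard error 0.22). In that setting Snora73a passed an unadjusted limma p of 0.05, as did 8.38% of all genes. Without HFD PN replicate 1 alone the difference of Snora73a was -0.74 (standard error 0.34), and without Ctrl PN replicate 3 alone it was 0.065. Snora73a passed in neither of these settings.
U8 (Snord118), needed for maturation of large-subunit ribosomal RNA, was at 1.49 to 1.78 in HFD PN and 1.53 to 1.89 in Ctrl PN, a difference of -0.10 (standard error 0.12, exact p = 0.40). Snord47, the measured member of the 10 snoRNAs of the Gas5 introns, had one of -0.37 (standard error 0.24, exact p = 0.371), with Ctrl PN replicates 3 and 4 at 4.61 and 4.66 and the other 6 livers at 3.68 to 3.99. None of 8 listed imprinted snoRNAs, known from brain, was measured alone. The 16 rows shared by Snord116l1 and Snord116l2 all held 1 value per liver, with a mean of 1.64, near the median of all rows.
Members with a signal far above the median of all rows also differed among themselves. Snord99 was at 8.97, 9.23, 9.18 and 8.79 in HFD PN and at 9.15, 9.05, 9.27 and 9.19 in Ctrl PN, a difference of -0.12 (standard error 0.12, exact p = 0.286). Snora44 was at 10.15, 8.96, 8.71 and 8.77 in HFD PN and at 9.12, 8.92, 10.11 and 9.48 in Ctrl PN, a difference of -0.26 (standard error 0.36, exact p = 0.543). Snord104 had a difference of -0.02 (standard error 0.34, exact p = 0.914), which turned to 0.01 when arrays were centred on their medians. Snora33 was at 9.02, 8.11, 8.58 and 8.67 in HFD PN and at 8.67, 8.75, 9.63 and 9.504 in Ctrl PN, a difference of -0.54 (standard error 0.27, exact p = 0.171), while its other row had a mean of 1.63.

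The RefSeq table placed 70 of the 73 snoRNA genes within the span of another gene. Snord13, Snord89 and Snord118 had none. There were 56 host genes, of which 42 code for protein and 14 are long noncoding RNAs, and 16 of them make ribosomal proteins. For 57 snoRNA genes the host was measured alone, through 43 hosts, and in 30 of these pairs (52.6%) the snoRNA and the host had differences of the same sign. The hosts had a median difference of 0.00, with 22 above 0 and 21 below, and 0 of them passed an unadjusted p of 0.05.
In HFD PN replicate 1 some snoRNAs and their hosts deviated in opposite directions and others in the same direction. The pairs given here were chosen after their values were seen and do not give the share of either kind. Snora30 lay 2.05 above the mean of the other HFD PN livers, and Srcap had a deviation of -1.34. Snora34 lay 1.64 above, and Kansl2, which codes for a subunit of a histone acetyltransferase complex, had one of -1.92. Snora74a lay 1.27 above, and Snhg4 had one of -1.20. Snord82 lay 0.52 above, and its host Ncl, which codes for nucleolin, a major protein of the nucleolus, had one of -2.46. Snora75, also from Ncl, lay only 0.07 above. Some ribosomal protein hosts lay with their snoRNAs. Rpl32 lay 0.79 above, Rpsa 0.44 and Rps12 0.63, beside 1.07, 1.51 and 0.57 for their snoRNAs Snora7a, Snora62 and Snora33. Others did not, as Rpl4 had a deviation of -0.535 beside 1.08 for Snord16a. Over the 43 measured hosts the median was -0.17 in HFD PN replicate 1 and 0.13 in Ctrl PN replicate 3.

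**Figure D4:**
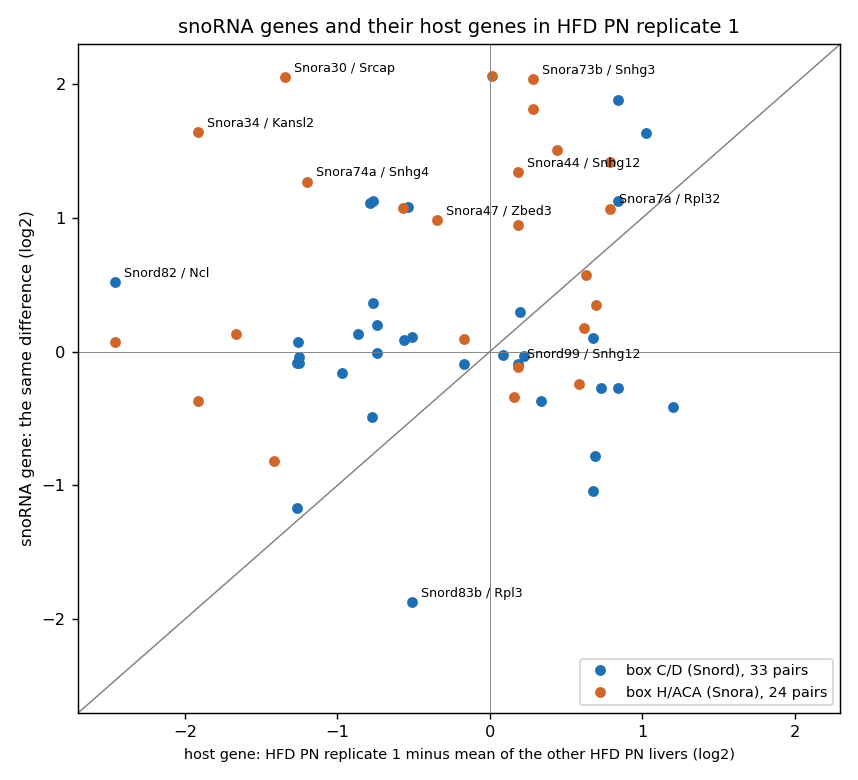
Deviation of HFD PN replicate 1 from the mean of the other HFD PN livers (log2) for host genes (horizontal) and for the snoRNA genes within them (vertical), with 1 point per pair, 33 Snord and 24 Snora pairs, and the diagonal marking equal values. Pairs such as Snora30 with Srcap (2.05 and -1.34) lie far above the diagonal, and Snord83b with Rpl3 lies below it.

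There were 11 hosts with several measured snoRNAs, holding 25 snoRNA genes, and differences between members of 1 host were not tested. In Snhg3, Snora73a and Snora73b lay 1.81 and 2.04 above the other HFD PN livers in HFD PN replicate 1, and 1.39 and 1.80 above the other control livers in Ctrl PN replicate 3. Snord88a and Snord88c, from 2410002F23Rik, also lay close together on these arrays, but at low mean signals of 1.73 and 1.91. Their differences between the groups were -0.09 and 0.17 (standard errors 0.12 and 0.26). The deviations of Snord88a and Snord88c were -0.01 and 0.20 in HFD PN replicate 1 and 0.21 and 0.13 in Ctrl PN replicate 3. Members of some other hosts had less even values on these arrays, of which 2 examples follow, chosen after their values were seen. Snhg12, a noncoding RNA, holds Snora44, Snora16a, Snora61 and Snord99. In HFD PN replicate 1 Snora44 and Snora16a lay 1.34 and 0.94 above the other HFD PN livers, while Snora61 had a deviation of -0.11, Snord99 one of -0.09 and Snhg12 itself one of 0.18. The differences between the groups were -0.26 for Snora44, 0.43 for Snora16a, -0.08 for Snora61, -0.12 for Snord99 and 0.09 for Snhg12 (standard errors 0.36, 0.32, 0.13, 0.12 and 0.16), and none passed the test.
The noncoding RNA 2410006H16Rik holds Snord49a, Snord49b and Snord65. Its difference was 0.33 (standard error 0.26, exact p = 0.314), and those of the snoRNAs were -0.31, -0.64 and -0.54. In HFD PN replicate 1 Snord49a and Snord49b lay 1.13 and 1.88 above the other HFD PN livers and the host 0.84, while Snord65 had a deviation of -0.27. The host was thus on the other side of 0 from all its measured snoRNAs in the comparison of the groups.
The start sites of both noncoding hosts, of Snhg3, the host of U17, and of Snhg1, the host of U22, are shown because snoRNA hosts are known for a run of C and T bases at the start, a mark of genes regulated with the translation machinery. Each line gives 60 bases of the transcribed strand from RefSeq (GRCm38.p6), 5′ to 3′, with the annotated first base after position 30, and capitals mark a run of at least 5 bases that opens with C and holds only C and T, searched on that strand within 10 bases of the start.
Snhg12, chr4:132308648-132308707, plus strand: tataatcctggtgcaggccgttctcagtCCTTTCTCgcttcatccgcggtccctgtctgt
2410006H16Rik, chr11:62602847-62602906, plus strand: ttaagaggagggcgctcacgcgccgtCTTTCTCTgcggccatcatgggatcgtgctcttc
Snhg3, chr4:132353657-132353716, minus strand: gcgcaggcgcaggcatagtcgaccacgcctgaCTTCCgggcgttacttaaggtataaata
Snhg1, chr19:8723457-8723516, plus strand: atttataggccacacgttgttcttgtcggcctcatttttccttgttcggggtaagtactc
Snhg12 and 2410006H16Rik carried runs of 8 bases across the annotated start, and Snhg3 one of 5 bases just after it. No such run was found at Snhg1. Such a run was found at 22 of 48 start sites of 44 hosts in the table (45.8%) and at 30.7% of all 32851 start sites. A match describes the letters only.

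None of the measured core proteins of the snoRNA particles passed an unadjusted p of 0.05. Of the box C/D core, Nop56 had a difference of 0.27 (standard error 0.30, exact p = 0.514), Nop58 one of 0.01 (standard error 0.32) and Snu13, which binds the C/D motif first, one of 0.01 (standard error 0.15), and each of these turned below 0 under at least 1 other processing. Fbl was not measured alone. Of the box H/ACA core, the differences were 0.14 for Dkc1, -0.09 for Nhp2, 0.11 for Nop10 and -0.12 for Gar1, with standard errors of 0.14 to 0.25. Nop56 and Nop58 lay furthest from the snoRNAs on HFD PN replicate 1, with deviations of -0.86 and -1.252. Of 11 assembly factors 0 passed that p, and the smallest p-values were those of Naf1, an assembly factor of H/ACA particles, at 0.24 (exact p = 0.171), and Nolc1, a nucleolar chaperone, at 0.23 (exact p = 0.229).
Of 19 listed noncoding hosts 16 were measured alone, with a median difference of 0.09, and 1 passed an unadjusted p of 0.05. Snhg15 was at 1.91, 2.13, 2.04 and 1.71 in HFD PN and at 1.46, 1.92, 1.57 and 1.31 in Ctrl PN, and the groups overlapped at Ctrl PN replicate 2. It was higher in HFD PN by 0.38 (standard error 0.15, limma p = 0.0322, exact p = 0.0857). The limma p ran from 0.00587 to 0.0908 with each liver left out, and it exceeded 0.05 without HFD PN replicate 2 or 3 or Ctrl PN replicate 1, 3 or 4. Snhg5 had a difference of 0.41 (standard error 0.19, exact p = 0.143).
Small Cajal body RNAs, which guide the same changes on spliceosomal RNAs, are built like snoRNAs. Of the 10 listed, 5 were measured and 0 passed that p. Scarna6 was at 6.18 in HFD PN replicate 1 while replicates 2 to 4 lay at 4.27 to 4.49, and it was at 6.83 in Ctrl PN replicate 3 against 4.98 to 5.46 in the other control livers, a difference of -0.73 (standard error 0.51, exact p = 0.343). Scarna8, with a mean signal of 1.18, below the median of all rows, had a difference of 0.13 (standard error 0.09, exact p = 0.0571). The 5 genes had a median deviation of 1.04 in HFD PN replicate 1 and of 0.30 in Ctrl PN replicate 3. Their median thus lay near that of the Snora genes, 0.97, in HFD PN replicate 1. In Ctrl PN replicate 3 it lay near that of the Snord genes, 0.32. In whole tissue, fewer cells of a type and less RNA per cell cannot be told apart for any of these values.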

How the data were processed

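The authors deposited log2 values made from the probe signals of 8 arrays by RMA (oligo package, R 3.4.3), which corrects the background, brings the probe signals to a common distribution and summarises each probe set. No source used here gives the annotation release and build of the probe sets, and arrays have no read depth, so that their number limits the precision. Probe-level files were not used here.

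Gene names came from the platform annotation. All 22180 genes named by a row of their own entered 1 fit of the 2 groups, without covariates, by lmFit and eBayes of limma 3.58.1 (R 4.3.3), and p-values were adjusted over all genes by Benjamini-Hochberg, with no further scaling or filter. An exact two-sided permutation test was added for single genes. The procedure was tested on simulated arrays. Hosts are the smallest RefSeq gene span (GRCm38.p6, used for names and containment) that holds a snoRNA. The table used gave no strand, so that the strand was not required. Promoter sequences are from RefSeq.

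Members and gene lists were chosen with earlier results of these data known. Genes named are the 4 highest and 4 lowest differences and the 4 highest mean signals of each class, list members, core proteins and their hosts, and the 2 smallest p of each further list. Genes given for pairs, lengths or calls in 7 livers were named after their values were seen. No source used here pairs the livers by replicate number, and the main fit did not pair them. The alternatives tried were the mean of all rows of a gene, median centring, quantile normalization, array weights, a filter on dim genes, the replicate block, a variance with trend and robust estimation, a plain equal-variance test, updated symbols, rows naming several genes and each liver left out. Leaving out 2 arrays was added after seeing the data.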

Additional observations from a re-analysis of the deposited data

Results flagged for a closer look

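Among the 53 genes named and both class medians, 110 groups of 4 livers were searched for a liver whose gap to the nearest other exceeded Dixon's critical share of the group's range. Chance alone marks about 1 in 20 groups. There were 8, of which 6 lay in HFD PN replicate 1. In that liver Snora73a was at 6.21 (others 4.28 to 4.59), Snora47 at 3.56 (others 2.52 to 2.61), Snora7a at 3.94 (others 2.77 to 2.97), Scarna6 at 6.18 (others 4.27 to 4.49) and the host 2410006H16Rik at 6.35 (others 5.44 to 5.56). Nop53, the host of Snord23, was low there at 3.10 (others 3.84 to 3.90). In Ctrl PN replicate 3 Nop56 was low at 2.66 (others 3.18 to 3.26). In HFD PN replicate 3 Snhg12 was low at 1.86 (others 2.47 to 2.52); that array did not otherwise stand apart.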

How the results depend on the processing

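With all livers the counts under an unadjusted p of 0.01 were 0 for both classes, and array weights gave 2 Snord and 4 Snora genes (1.92% of all genes). Under 0.05 the counts were 1 Snord and 0 Snora genes. Array weights gave 4 and 6 (8.51% of all genes), the replicate block 3 and 1 (2.86%), and rows naming several genes 2 Snord rows (3.48%). The mean of all rows, median centring and a trended and robust variance each gave 1 Snora gene (3.51%, 3.11% and 3.87%). The pairing check found correlations of -0.30, 0.29, -0.41 and 0.16 between livers of the same number. HFD PN replicate 1 and Ctrl PN replicate 3, the arrays that stood apart, had 0.59 and weigh on such values. The check cannot show whether livers of the same number share a litter or a batch. Without both arrays that stood apart the counts under 0.01 were 1 and 4 (2.24% of all genes), and under 0.05 they were 4 and 7 (8.38%). With each liver left out, the counts under 0.01 ran from 0 to 1 (Snord) and from 0 to 4 (Snora), and under 0.05 from 1 to 5 and from 0 to 7. Besides HFD PN replicate 1, leaving out Ctrl PN replicate 1 or 2 raised the counts under 0.05, to 3 and 4 Snord and to 3 and 5 Snora genes (3.17% and 3.61% of all genes), and leaving out HFD PN replicate 2 gave 2 Snora genes (2.94%). The medians ran from -0.23 to -0.04 (Snord) and from -0.36 to -0.05 (Snora).
Differences near 0 changed sign. Snord104 was 0.011 with median centring. Nop56 was -0.0064 with the mean of all rows, Nop58 -0.069 with quantile normalization, and Snu13 -0.11, -0.063 and -0.091 with the mean of all rows, quantile normalization and array weights. With each liver left out, Snord104 ran from -0.29 to 0.20, Snord13 from -0.42 to 0.22, Snord22 from -0.66 to 0.011, Snora73a from -0.74 to 0.065 and Snora73b from -0.55 to 0.41. Nop56 ran from -0.033 to 0.48, Nop58 from -0.28 to 0.32, Snu13 from -0.11 to 0.10, Dkc1 from -0.026 to 0.22, Nhp2 from -0.19 to 0.0064 and Gar1 from -0.27 to 0.049. Of the hosts, Rpl23a ran from -0.14 to 0.032, Kansl2 from -0.21 to 0.59, 2410002F23Rik from -0.078 to 0.36, Ipo7 from -0.15 to 0.51 and Srcap from -0.094 to 0.47. The cause was not tested in any case. Of 459 differences of the 27 named snoRNA genes under the alternatives, 13 changed sign. Of those that did not, 17 came under an unadjusted p of 0.01 and 36 under 0.05.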
